A study of Mus musculus with 8 samples.

Results

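The genes described here encode osteopontin (Spp1) and secreted proteins best known from mineralized tissue, in sorted cells of mouse mammary tumors. They are 10 named genes of the 53697 in the count table: Spp1, Ibsp, Dmp1 and Mepe, the enamel-organ genes Amtn, Ambn and Odam, and the osteocalcin genes Bglap, Bglap2 and Bglap3. Of the 10, 7 passed the filter on low counts and 3 did not, namely Ibsp, Ambn and Mepe. The members were chosen with the values of these same libraries in view, both Dll1+ against Dll1- and between reporters, so both are given for them as a description, without a test.

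The cells came from MMTV-PyMT tumors, a luminal-like model in which a mammary-tumor-virus promoter drives the polyoma middle T antigen in mammary epithelium. PyMT-Dll1GFP mice carried a knock-in of GFP-IRES-Cre-ERT2 at Dll1, a gene for a Notch ligand, and PyMT-Dll1mCh mice carried a BAC-based mCherry reporter of the same gene. Each of the 4 mice, 2 per reporter, gave 1 library of reporter-positive (Dll1+) and 1 of reporter-negative (Dll1-) cells after depletion of CD45, CD31 and TER119 cells, so that the 8 libraries form 4 pairs. Every group carries the PyMT transgene and a reporter, and no group lacks either. The age of these mice is not given in the sources used here.

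Osteopontin is an acidic phosphorylated glycoprotein that binds integrins of the alpha-v type and CD44, and it is made by bone cells, macrophages and many epithelia, the lactating mammary gland among them, and is present in milk. Spp1 stands beside Dmp1, Ibsp and Mepe in a cluster of related genes for matrix proteins of bone and dentin, which also holds Dspp. Amtn (amelotin), Ambn (ameloblastin) and Odam belong to the same wider family of secreted calcium-binding phosphoproteins, made mainly by the cells that form enamel and by the epithelium that seals the gum to the tooth, and they lie close to the casein genes. Bglap and Bglap2 encode osteocalcin, a vitamin K-dependent protein of osteoblasts, and Bglap3 is a close relative known from tissues outside bone.

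Total counts ranged from 27.3 M to 123.9 M per library, so that 3 counts, taken here as the limit of detection, correspond to 0.0240 to 0.105 CPM (normalized read counts, scaled to 1e6 per library with TMM factors). Such limits cover counting error only. The sort was checked with Dll1, which was at 7.61 to 50.3 CPM in the Dll1- and 87.5 to 250.2 CPM in the Dll1+ libraries, a log2 fold change of 2.90 ± 0.24 (SE, n = 4 mice, edgeR adjusted p = 0.00651). The epithelial marker Epcam was at 899 to 1240 CPM in all 8 libraries, while Ptprc (CD45) was at 2.88 to 12.8 CPM and Pecam1 (CD31) at 13.8 to 98.2 CPM, both highest in Dll1- cells of PyMT-Dll1mCh mice. Those 2 libraries stood apart from the others in summed fibroblast markers (9 genes), at 7722 and 22010 CPM, against 3050 and 3303 CPM in Dll1+ cells of the same mice and 1002 to 1240 CPM in the 4 PyMT-Dll1GFP libraries.

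Spp1 (ENSMUSG00000029304, GRCm38 chr5:104435118-104441050, plus strand) was the abundant member and was higher in Dll1+ cells of every mouse. In PyMT-Dll1GFP mouse 1, Spp1 was at 2360 CPM in Dll1- and 6013 CPM in Dll1+ cells. In PyMT-Dll1GFP mouse 2 the values were 1559 and 3540 CPM. In PyMT-Dll1mCh mouse 1 they were 1001 and 3208 CPM, and in mouse 2 of that reporter 1998 and 4641 CPM. The lowest Dll1+ library thus lay above the highest Dll1- library, and the ratio within a mouse was 2.27-fold to 3.21-fold. Spp1 ranked between 6 and 23 by CPM among all genes in the Dll1+ libraries, and between 24 and 106 in the Dll1- libraries, and it took 0.101% to 0.245% of counts in the Dll1- libraries against 0.314% to 0.612% in the Dll1+ libraries. Fitted over all 4 mice, Spp1 differed by 1.36 ± 0.12 on the log2 scale (SE), or 2.56-fold, from means of 1730 ± 586 CPM in Dll1- and 4351 ± 1266 CPM in Dll1+ cells (SD, n = 4). In bulk samples such as these, fewer cells that express a gene and less RNA per cell cannot be told apart.

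**Figure D1:**
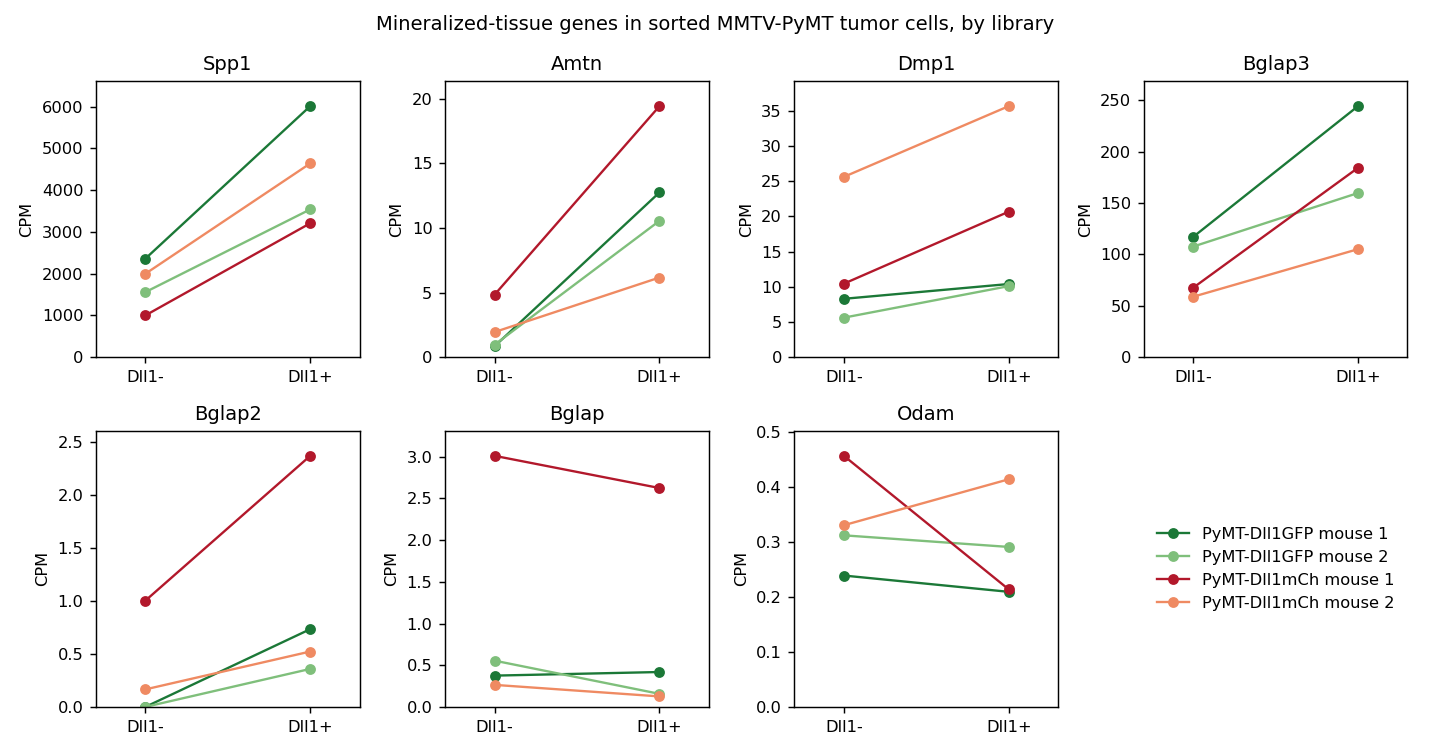
CPM of the 7 members that passed the filter (linear y axes from 0, 1 panel per gene) in Dll1- and Dll1+ libraries; each line joins both libraries of 1 mouse. Spp1 and Amtn do not overlap between Dll1- and Dll1+ libraries, Dmp1 and Bglap3 rise within each of the 4 mice, and PyMT-Dll1mCh mouse 1 stands apart for Bglap.

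The size of the Spp1 difference was similar in both reporters. The log2 fold change was 1.27 ± 0.16 in PyMT-Dll1GFP and 1.45 ± 0.16 in PyMT-Dll1mCh mice (SE, n = 2 mice each), and their difference was -0.18 ± 0.22. Between the reporters, Spp1 in mCh minus GFP cells was -0.39 ± 0.42 in Dll1- and -0.28 ± 0.42 in Dll1+ libraries on the log2 scale.

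Macrophages also make osteopontin, so their markers were read beside it. All 12 macrophage markers were detected. Their summed level in PyMT-Dll1GFP mice was 320 and 274 CPM in Dll1- and 468 and 399.9 CPM in Dll1+ cells, while in PyMT-Dll1mCh mice it was 767 and 919 CPM in Dll1- and 514 and 707 CPM in Dll1+ cells. Most of this sum in PyMT-Dll1GFP mice was Cd14, a co-receptor for bacterial lipopolysaccharide that other cells express as well. Without Cd14, a choice made after its values were seen, the other 11 markers summed to 98.4 to 129 CPM in the 4 PyMT-Dll1GFP libraries and were at 619.6 and 639.5 CPM in Dll1- and 278 and 284 CPM in Dll1+ cells of PyMT-Dll1mCh mice. In PyMT-Dll1mCh mice 11 of the 12 markers were lower in Dll1+ cells past the test and 1, Cd14, was higher. In PyMT-Dll1GFP mice the 11 markers were at 126.6 and 98.4 CPM in Dll1- and 129 and 112.0 CPM in Dll1+ cells. The part of macrophages in the Spp1 difference was not tested.

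**Figure D2:**
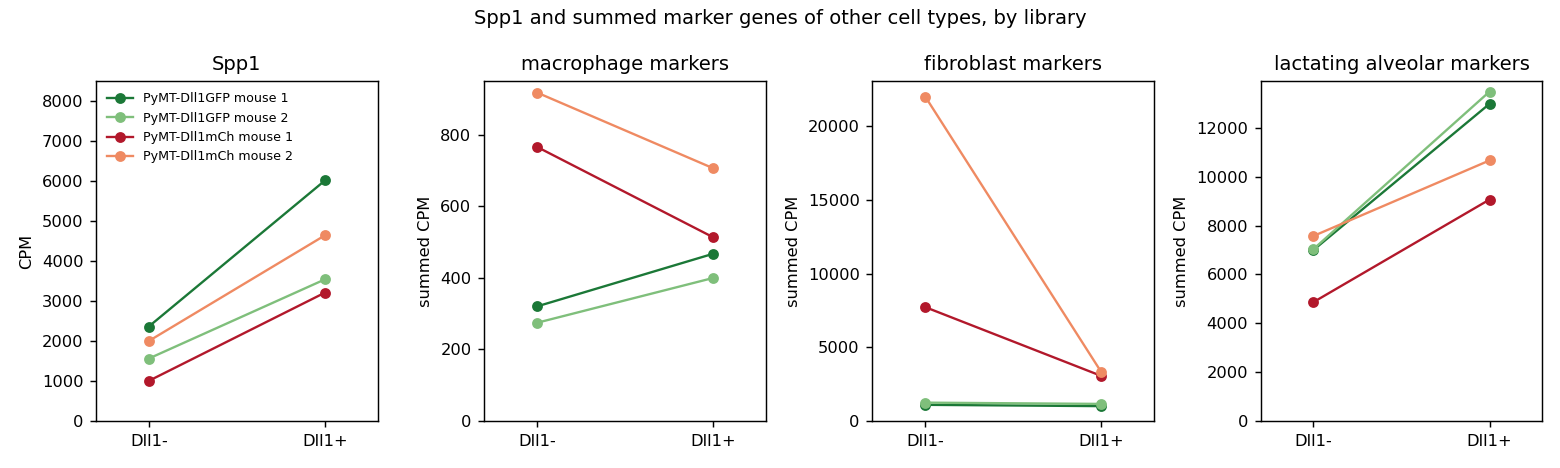
Spp1 (CPM) beside the summed CPM of macrophage (12 genes), fibroblast (9) and lactating alveolar (5) markers, by library, with y axes from 0; each line joins both libraries of 1 mouse. Spp1 and the alveolar sum, most of which is Csn3, are higher in Dll1+ cells of 4 of 4 mice, while the fibroblast sum is lower in PyMT-Dll1mCh mice (3050 and 3303 against 7722 and 22010 CPM).

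The lactating alveolar cell also makes osteopontin. The summed level of its 5 markers was 4865 to 7574 CPM in Dll1- and 9068 to 13490 CPM in Dll1+ libraries, higher in Dll1+ cells of 4 of 4 mice. Most of it was Csn3 (kappa-casein), the only one of the 5 that rose past the test over 4 mice. Lalba was at 157 to 456 CPM in Dll1- and 311 to 859 CPM in Dll1+ libraries, higher in 4 of 4 mice. Csn1s1 was at 60.3 to 280 and 46.2 to 318 CPM, higher in 3 of 4. The whey protein gene Wap went the other way, at 33.2 to 82.2 CPM in Dll1- and 8.86 to 58.4 CPM in Dll1+ libraries, lower in 4 of 4 mice, and Csn2 (beta-casein) was lower in 3 of 4. Within each reporter 1 of the 5 (Csn3) rose past the test, while 2 (Wap and Csn2) fell in PyMT-Dll1GFP mice and 1 (Wap) in PyMT-Dll1mCh mice. Of all genes, 9.13% and 11.8% passed within these reporters in either direction. The part of alveolar genes in the Spp1 difference was not tested. Of the osteoblast marker list of 7 genes, 6 passed the filter and 2 (Alpl and Runx2, described below with the companion genes) rose past the test over 4 mice. Of all genes, 14.0% passed in either direction. Within a reporter, 1 of the list rose past the test in PyMT-Dll1GFP mice, and 1 rose and 1 fell in PyMT-Dll1mCh mice. The part of osteoblast genes in the Spp1 difference was not tested. Sp7 (osterix), the defining transcription factor of osteoblasts, was at 0.140 to 0.763 CPM and Phex at 0 to 0.224 CPM, while Alpl was at 75.5 to 252.9 CPM and Runx2 at 10.4 to 23.8 CPM. Sp7 was lower in Dll1+ cells of 4 of 4 mice, at -0.92 ± 0.38 on the log2 scale, and did not pass (edgeR adjusted p = 0.160). The summed level of the list, most of it Col1a1 (a collagen that is also on the fibroblast list), was 536 to 637 CPM in the 4 PyMT-Dll1GFP libraries, 2685 and 6778 CPM in Dll1- and 1303 and 1493 CPM in Dll1+ cells of PyMT-Dll1mCh mice.

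The bases just upstream of the Spp1 start are shown because Spp1 carries the main difference, and those of Amtn because its ratio was the largest among members with counts in every library. Both are 250 bases that end at the base before the RefSeq start site (RefSeq on GRCm38.p6, plus strand), at chr5:104434861-104435110 for Spp1 and chr5:88375858-88376107 for Amtn. Capitals mark matches to a RUNX motif, TGTGGT, in Spp1 (as its reverse complement) and to the core of the motif of RBPJ, the DNA-binding factor of Notch signaling, TGGGAA, in Amtn.
Spp1: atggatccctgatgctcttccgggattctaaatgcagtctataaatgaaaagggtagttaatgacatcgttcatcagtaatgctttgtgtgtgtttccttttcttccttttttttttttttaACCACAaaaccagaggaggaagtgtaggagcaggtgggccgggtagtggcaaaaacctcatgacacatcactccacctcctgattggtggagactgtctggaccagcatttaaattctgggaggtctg
Amtn: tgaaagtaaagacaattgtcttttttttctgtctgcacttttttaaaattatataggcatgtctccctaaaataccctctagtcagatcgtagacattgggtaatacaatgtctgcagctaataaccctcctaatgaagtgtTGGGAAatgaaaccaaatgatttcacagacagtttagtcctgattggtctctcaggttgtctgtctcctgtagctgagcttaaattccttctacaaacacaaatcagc

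Motifs were searched on both strands in these 250-base windows for the 9 members with a RefSeq promoter. The RUNX letters were found in 5 of the 9 (Spp1, Dmp1, Mepe, Odam and Bglap) and in 14.0% of 32851 promoter windows of the whole table. The RBPJ letters were in 2 of the 9 (Amtn and Odam) and in 21.6% of all windows, and an AP-1 motif, TGANTCA, was in 1 (Odam) and in 6.7% of all windows. The motifs do not overlap each other in these windows. In Spp1 the match spans bases 128 to 123 before the start, and in Amtn bases 108 to 103. A match is a run of letters and not a shown binding site.

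Among the cluster neighbors of Spp1 that share its gene family, only Dmp1 was measurable. Dmp1 (ENSMUSG00000029307, chr5:104202613-104214102), a dentin and osteocyte matrix protein, was at 8.29 CPM in Dll1- and 10.4 CPM in Dll1+ cells of PyMT-Dll1GFP mouse 1. In mouse 2 of that reporter it was at 5.62 and 10.1 CPM. In PyMT-Dll1mCh mouse 1 it was at 10.4 and 20.7 CPM, and in mouse 2 at 25.6 and 35.6 CPM. Dmp1 was therefore higher in Dll1+ cells of 4 of 4 mice, but the groups overlapped, since the Dll1- cells of PyMT-Dll1mCh mouse 2 exceeded 3 of the 4 Dll1+ libraries. Its log2 fold change was 0.66 ± 0.13 over 4 mice, 0.58 ± 0.19 in PyMT-Dll1GFP and 0.73 ± 0.18 in PyMT-Dll1mCh mice. Dmp1 differed more between the reporters than by Dll1, at 1.36 ± 0.47 (mCh minus GFP, log2) in Dll1- and 1.46 ± 0.46 in Dll1+ cells, and without PyMT-Dll1mCh mouse 2 those values were 0.63 and 1.02.

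Bone sialoprotein (Ibsp, chr5:104299171-104311469) and the osteocyte phosphoglycoprotein Mepe (chr5:104325329-104338611) lie between Dmp1 and Spp1, and 96.5 kb separate Mepe from Spp1. Ibsp had 7 counts in all, with 1 to 3 counts in each of 4 libraries, and Mepe had 0 counts in the 8 libraries. Neither could be compared at this depth.

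Amtn (ENSMUSG00000029282, chr5:88376108-88385916) was scarce but showed the largest ratio of the members with counts in every library. Amelotin is secreted by enamel-forming cells late in their life and by the gum epithelium attached to the tooth, where it lies in a basal lamina. In PyMT-Dll1GFP mouse 1, Amtn was at 0.853 CPM (25 counts) in Dll1- and 12.8 CPM (366 counts) in Dll1+ cells. In PyMT-Dll1GFP mouse 2 it was at 0.971 CPM (28 counts) and 10.6 CPM (472 counts). In PyMT-Dll1mCh mouse 1 it was at 4.85 CPM (605 counts) and 19.4 CPM (1274 counts), and in mouse 2 at 1.95 CPM (59 counts) and 6.17 CPM (343 counts). Every Dll1+ library was above every Dll1- library, by a narrow margin between both PyMT-Dll1mCh mice, 6.17 against 4.85 CPM.

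The Amtn ratio was larger in PyMT-Dll1GFP mice. It was 15.0-fold and 10.9-fold within these mice and 4.01-fold and 3.17-fold within the PyMT-Dll1mCh mice. The fitted log2 fold changes were 3.67 ± 0.22 and 1.85 ± 0.19 (SE), with a difference of 1.81 ± 0.29, and the value over 4 mice was 2.67 ± 0.43. The levels differed mainly in Dll1- cells, where Amtn was 1.92 ± 0.66 higher in mCh than in GFP libraries on the log2 scale, against 0.14 ± 0.58 in Dll1+ cells. Without PyMT-Dll1mCh mouse 1, these mCh minus GFP values for Amtn were 1.09 among Dll1- and -0.95 among Dll1+ libraries.

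**Figure D3:**
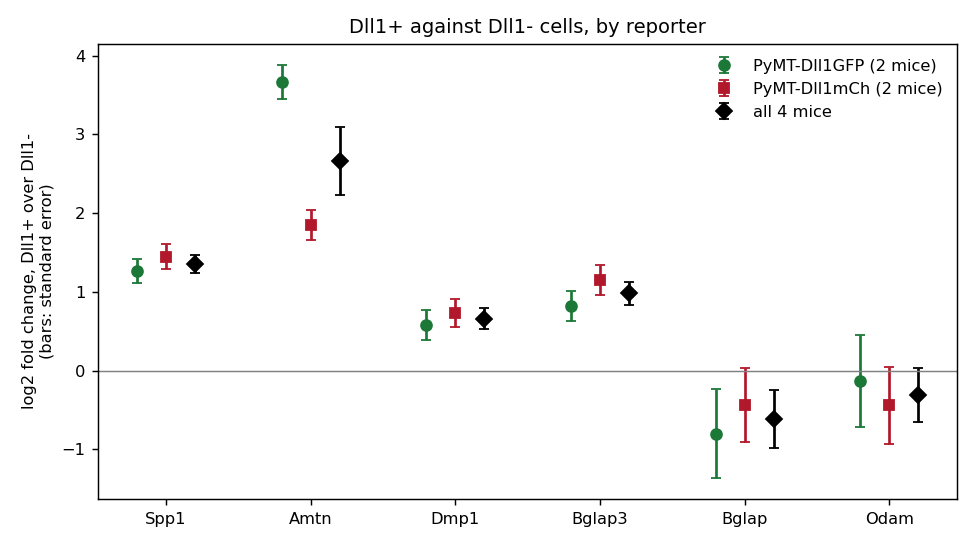
Difference between Dll1+ and Dll1- cells as a log2 fold change for 6 members with counts in every library (points; bars are the standard error of the fit), in PyMT-Dll1GFP mice, PyMT-Dll1mCh mice and all 4 mice. Spp1 lies between 1.27 and 1.45, Amtn separates the reporters (3.67 and 1.85), and the bars of Odam reach 0.

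The other enamel genes near Amtn did not share its level. Odam (ENSMUSG00000009580, chr5:87885029-87894174), a protein of ameloblasts and of the attached gum epithelium, was between 0.209 and 0.456 CPM in all 8 libraries, with 6 to 57 counts each, and was higher in Dll1+ cells of 1 of 4 mice. Its log2 fold change was -0.31 ± 0.35, within its error. Ambn (chr5:88455991-88468531), the ameloblastin gene 70.1 kb from Amtn, had 1 count in the 8 libraries together.

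The osteocalcin genes lie side by side on the minus strand of chromosome 3, Bglap3 at chr3:88368616-88372743, Bglap2 at chr3:88377736-88378699 and Bglap at chr3:88383501-88384464. Their coding sequences are all 288 bases long in GENCODE M21, and 13 positions differ among them. Bases 154 to 273 of the coding sequence are shown here because it shows how alike the 3 genes are; capitals mark the 8 positions in this stretch where the 3 genes are not all alike.
Bglap: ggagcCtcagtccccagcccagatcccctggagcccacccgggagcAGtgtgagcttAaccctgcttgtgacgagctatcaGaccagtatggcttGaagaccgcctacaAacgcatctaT
Bglap2: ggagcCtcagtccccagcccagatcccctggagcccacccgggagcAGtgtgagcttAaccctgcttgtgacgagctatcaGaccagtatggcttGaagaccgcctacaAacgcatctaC
Bglap3: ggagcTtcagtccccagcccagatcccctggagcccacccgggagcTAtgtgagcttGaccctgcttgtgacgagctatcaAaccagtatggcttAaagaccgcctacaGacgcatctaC

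Bglap and Bglap2 shared 98.6% of coding bases, Bglap and Bglap3 95.5%, and Bglap2 and Bglap3 96.9%. Of the 31-base words of the main Bglap transcript, 80.5% also occur in Bglap2 and 38.0% in Bglap3, so the split of estimated counts among the 3 genes is uncertain. For the longest Bglap3 transcript (2051 bases) 12.2% of words occur in Bglap2 and 7.72% in Bglap, which leaves most of it distinct.

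Bglap3 held 94.4% to 99.7% of the counts assigned to the 3 genes. It was at 117 CPM in Dll1- and 244 CPM in Dll1+ cells of PyMT-Dll1GFP mouse 1, and at 107.6 and 159.7 CPM in mouse 2. In PyMT-Dll1mCh mouse 1 it was at 67.6 and 184 CPM, and in mouse 2 at 58.8 and 105 CPM. Bglap3 was higher in Dll1+ cells of 4 of 4 mice by 1.48-fold to 2.73-fold, and the groups overlapped, with 105 CPM in 1 Dll1+ library against 117 CPM in 1 Dll1- library. Its log2 fold change was 0.98 ± 0.15 over 4 mice, 0.82 ± 0.19 in PyMT-Dll1GFP and 1.15 ± 0.19 in PyMT-Dll1mCh mice. In contrast to Dmp1, Bglap3 was lower in mCh than in GFP cells, at -0.83 ± 0.30 in Dll1- and -0.48 ± 0.29 in Dll1+ libraries (log2). Summed over the 3 genes, which does not depend on how reads were split among them, the level was 89.1 ± 28.1 CPM in Dll1- and 175 ± 58.2 CPM in Dll1+ cells (SD, n = 4), higher in 4 of 4 mice.

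The genes for osteocalcin proper, Bglap and Bglap2, were scarce. Bglap2 had 0 counts in both Dll1- libraries of PyMT-Dll1GFP mice and 21 and 16 counts, 0.732 and 0.358 CPM, in their Dll1+ cells. Against 3 counts per Dll1- library that is at least 7.16-fold and at least 3.44-fold higher. These limits take the uncertain split of counts between Bglap and Bglap2 as given. In PyMT-Dll1GFP mouse 2, Bglap went the other way, at 0.555 CPM in Dll1- and 0.157 CPM in Dll1+ cells. In PyMT-Dll1mCh mouse 1 Bglap2 was at 1.001 and 2.37 CPM, and in mouse 2 at 0.165 and 0.522 CPM. As assigned, Bglap2 was thus higher in Dll1+ cells of 4 of 4 mice. Bglap was at 3.01 CPM in Dll1- and 2.63 CPM in Dll1+ cells of PyMT-Dll1mCh mouse 1, and between 0.126 and 0.555 CPM in the other 6 libraries. Both libraries of that mouse stood apart for Bglap, and its log2 fold change by Dll1 was -0.61 ± 0.37 over 4 mice.

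The upstream bases of Bglap and Bglap3 are shown because these near-identical coding genes stood at such different levels. They lie at chr3:88384467-88384716 and chr3:88372742-88372991 (RefSeq on GRCm38.p6, minus strand, printed along that strand). Capitals mark the RUNX letters, which occur in Bglap, 132 to 127 bases before the start, and not in Bglap3.
Bglap: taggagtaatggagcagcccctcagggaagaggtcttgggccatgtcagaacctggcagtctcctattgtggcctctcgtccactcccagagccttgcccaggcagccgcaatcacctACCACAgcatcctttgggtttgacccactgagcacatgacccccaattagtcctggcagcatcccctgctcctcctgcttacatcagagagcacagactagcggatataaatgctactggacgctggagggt
Bglap3: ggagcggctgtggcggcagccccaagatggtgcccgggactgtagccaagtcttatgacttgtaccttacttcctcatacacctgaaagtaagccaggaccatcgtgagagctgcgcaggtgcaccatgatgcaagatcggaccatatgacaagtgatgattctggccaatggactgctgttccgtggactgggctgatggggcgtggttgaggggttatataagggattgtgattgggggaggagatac

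Per kilobase of exon, the order of the members by median level over the 8 libraries was Spp1 (1689 CPM per kb), Bglap3 (42.7), Amtn (5.39), Dmp1 (3.77), Bglap2 (0.934), Bglap (0.642) and Odam (0.219). The libraries of Spp1, at 607 to 3648 CPM per kb, did not overlap those of Bglap3, at 22.4 to 92.9, nor did Bglap3 overlap Amtn or Dmp1. Amtn and Dmp1 overlapped widely, at 0.835 to 19.0 and 2.03 to 12.9 CPM per kb, and so did Bglap2, Bglap and Odam.

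Across all 18322 genes tested, 14.0% passed an adjusted p of 0.05 for Dll1+ against Dll1- over 4 mice, 9.13% in PyMT-Dll1GFP mice, 11.8% in PyMT-Dll1mCh mice and 0.0710% for the difference between the reporters. Of the 7 members that passed the filter, 4 (Spp1, Amtn, Dmp1 and Bglap3) were past that threshold over 4 mice, 3 (Spp1, Amtn and Bglap2) in PyMT-Dll1GFP mice and 4 (Spp1, Amtn, Dmp1 and Bglap3) in PyMT-Dll1mCh mice, all with higher values in Dll1+ cells, and 0 for the difference (2 at an unadjusted p under 0.05, 1 called by DESeq2). Between the reporters, 36.6% of genes passed in Dll1- and 30.6% in Dll1+ cells, and 0 of the 7 members in either (4 and 1 at an unadjusted p under 0.05, 4 and 1 called by DESeq2). Since the members were chosen on these contrasts, nothing is read from the counts. Bglap2 passed the filter through its Dll1+ libraries, at 0.358 to 2.37 CPM. Its place among the 3 rests on 0 counts in both Dll1- libraries of PyMT-Dll1GFP mice, where the fitted value depends on the prior count. The comparisons within a reporter share their libraries with the comparison over 4 mice.

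Next, 60 genes that act with these proteins were read, in lists of receptors, enzymes, regulators and other matrix proteins, of which 54 passed the filter. The lists were chosen with earlier results of these data known, so the counts and p values of these genes are a description. Over 4 mice 8 of the 54 rose and 4 fell in Dll1+ cells (22.2%, against 14.0% of all genes), with a median log2 fold change of -0.19 against -0.0007 over all genes. The median was 0.100 in PyMT-Dll1GFP mice, where 29 of the 54 values were above 0, and -0.22 in PyMT-Dll1mCh mice, where 22 were.

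Of the 10 osteopontin receptor genes, 2 rose and 1 fell. Itgav, the alpha-v chain that pairs with beta chains to bind osteopontin, was at 42.2 to 86.5 CPM in Dll1- and 68.5 to 167 CPM in Dll1+ libraries, with a log2 fold change of 0.72 ± 0.09 (adjusted p = 0.00932, higher in 4 of 4 mice). Itga8, which pairs with beta-1 to bind the same motif, was at 29.3 to 46.3 CPM in Dll1- and 39.9 to 84.9 CPM in Dll1+ libraries, 0.70 ± 0.10 (adjusted p = 0.0115, 4 of 4 mice). For both integrin chains the GFP libraries were higher than the mCh libraries in both cell groups, and the Dll1+ and Dll1- groups overlapped. Itga5, better known as the fibronectin receptor chain, fell by 0.996 on the log2 scale (SE 0.20, adjusted p = 0.0346, lower in 4 of 4 mice). It was highest, at 109.8 CPM, in the Dll1- library with the highest summed CPM of fibroblast markers (PyMT-Dll1mCh mouse 2), and was 3.02 higher on the log2 scale in mCh than in GFP Dll1- cells (adjusted p = 0.00505). Cd44 was 0.30 ± 0.08 (adjusted p = 0.0508) and Itgb3 0.66 ± 0.16 (adjusted p = 0.0544), and neither passed over 4 mice. Within PyMT-Dll1mCh mice Cd44 rose by 0.428 ± 0.082 (edgeR adjusted p = 0.0270), against 0.175 ± 0.082 in PyMT-Dll1GFP mice (adjusted p = 0.235).

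Of the 15 enzymes and transporters tested, 4 rose and 2 fell over 4 mice (40.0%, against 14.0% of all genes). Alpl, the tissue-nonspecific alkaline phosphatase that frees phosphate for mineral and can dephosphorylate osteopontin, was at 75.5 to 179 CPM in Dll1- and 118 to 253 CPM in Dll1+ libraries, 0.71 ± 0.08 (adjusted p = 0.00765, 4 of 4 mice). Enpp1, which makes the mineral inhibitor pyrophosphate, rose by 0.47 ± 0.07 (adjusted p = 0.0126), and Ank, which moves pyrophosphate and ATP out of cells, by 0.99 ± 0.20 (adjusted p = 0.0368), both in 4 of 4 mice. Fam20a, the partner of the kinase that phosphorylates osteopontin, rose by 0.26 ± 0.06 (adjusted p = 0.0356). Fam20c, that kinase, had no overlap between groups, at 45.9 to 53.5 CPM in Dll1- and 8.86 to 38.7 CPM in Dll1+ libraries. Its log2 fold change of -1.36 ± 0.36 did not pass over 4 mice (adjusted p = 0.0690). Within PyMT-Dll1GFP mice it was -2.06 ± 0.26 and passed (edgeR adjusted p = 0.0181). In PyMT-Dll1mCh mice it was -0.69 ± 0.24 and did not (adjusted p = 0.142). The difference between the reporters for Fam20c did not pass (adjusted p = 0.247). Tgm2, a transglutaminase that cross-links osteopontin, fell by 0.44 (SE 0.09, adjusted p = 0.0305), and the phosphate transporter Slc20a2 fell by 0.28 (SE 0.06, adjusted p = 0.0393).

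Of the 16 regulators, 2 rose and 1 fell over 4 mice (18.75%, against 14.0% of all genes). Runx1 was at 60.1 to 111 CPM in Dll1- and 108 to 157 CPM in Dll1+ libraries, 0.66 ± 0.09 (adjusted p = 0.0109), and Runx2, the master regulator of osteoblasts that is also made in mammary epithelium, was at 10.4 to 18.5 and 16.4 to 23.8 CPM, 0.68 ± 0.17 (adjusted p = 0.0493), both higher in 4 of 4 mice. Msx2, a homeobox repressor of osteocalcin and of other tooth and bone genes, was at 2.08 to 2.66 CPM in Dll1- and 0.663 to 0.882 CPM in Dll1+ libraries without overlap, and fell by 1.58 (SE 0.22, adjusted p = 0.0115). The other 13, Sp7, Dlx3, Dlx5 and the Bmp2, Bmp4 and Bmp7 ligands among them, did not pass over 4 mice. Within PyMT-Dll1GFP mice Bmp4 rose by 1.37 ± 0.26 (edgeR adjusted p = 0.0267), against -0.12 ± 0.23 in PyMT-Dll1mCh mice. The difference between the reporters for Bmp4 did not pass (adjusted p = 0.166). Runx2 lies at the threshold and did not pass with RLE in place of TMM size factors.

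Of the other matrix proteins of bone, cartilage and tooth, 0 of the 13 tested passed over 4 mice (against 14.0% of all genes; edgeR, 0 also at an unadjusted p under 0.05, and 0 called by DESeq2), and 12 of the 13 had negative log2 fold changes, with a median of -0.47. The median was -0.03 in PyMT-Dll1GFP mice, with 6 of 13 values above 0, and -1.17 in PyMT-Dll1mCh mice, with 2 of 13 above 0, where the summed fibroblast markers were also lower in Dll1+ cells, by log2 differences of -1.34 and -2.74 in the 2 mice. The part of fibroblasts in these values was not tested. The 3 with the lowest p were Tnfrsf11b (osteoprotegerin) at -0.41 ± 0.17 (adjusted p = 0.162), Dcn (decorin) at -1.42 ± 0.68 (adjusted p = 0.220) and Postn (periostin) at -0.68 ± 0.36 (adjusted p = 0.260). Within PyMT-Dll1GFP mice edgeR called 1 of the 13 (Thbs1, -0.65 ± 0.135, adjusted p = 0.0367), against 9.13% of all genes. There 3 were at an unadjusted p under 0.05 and DESeq2 called 2. Within PyMT-Dll1mCh mice edgeR called 0, against 11.8% of all genes, with 5 at an unadjusted p under 0.05 and 4 called by DESeq2. Of the same 13, 9 were higher in mCh than in GFP Dll1- cells (69.2%, against 36.6% of all genes) and 6 in Dll1+ cells (46.2%, against 30.6%). Mgp (matrix Gla protein) was 3.55 higher on the log2 scale in Dll1- cells (adjusted p = 0.00168), Sparc (osteonectin) 3.76 (adjusted p = 0.00184) and Bgn (biglycan) 3.62 (adjusted p = 0.00205). In Dll1+ cells Sparc was 2.18 higher (adjusted p = 0.00896), Mgp 1.94 (adjusted p = 0.00933) and Fmod (fibromodulin) 2.97 (adjusted p = 0.00933). The fibroblast markers moved with these genes, 9 of 9 being higher in mCh than in GFP Dll1- cells and 6 of 9 in Dll1+ cells, and their part in these differences was not tested. The difference of the Dll1 effect between reporters was past the threshold for 0 of the 54 companion genes (24 at an unadjusted p under 0.05; DESeq2 called 4).

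**Figure D4:**
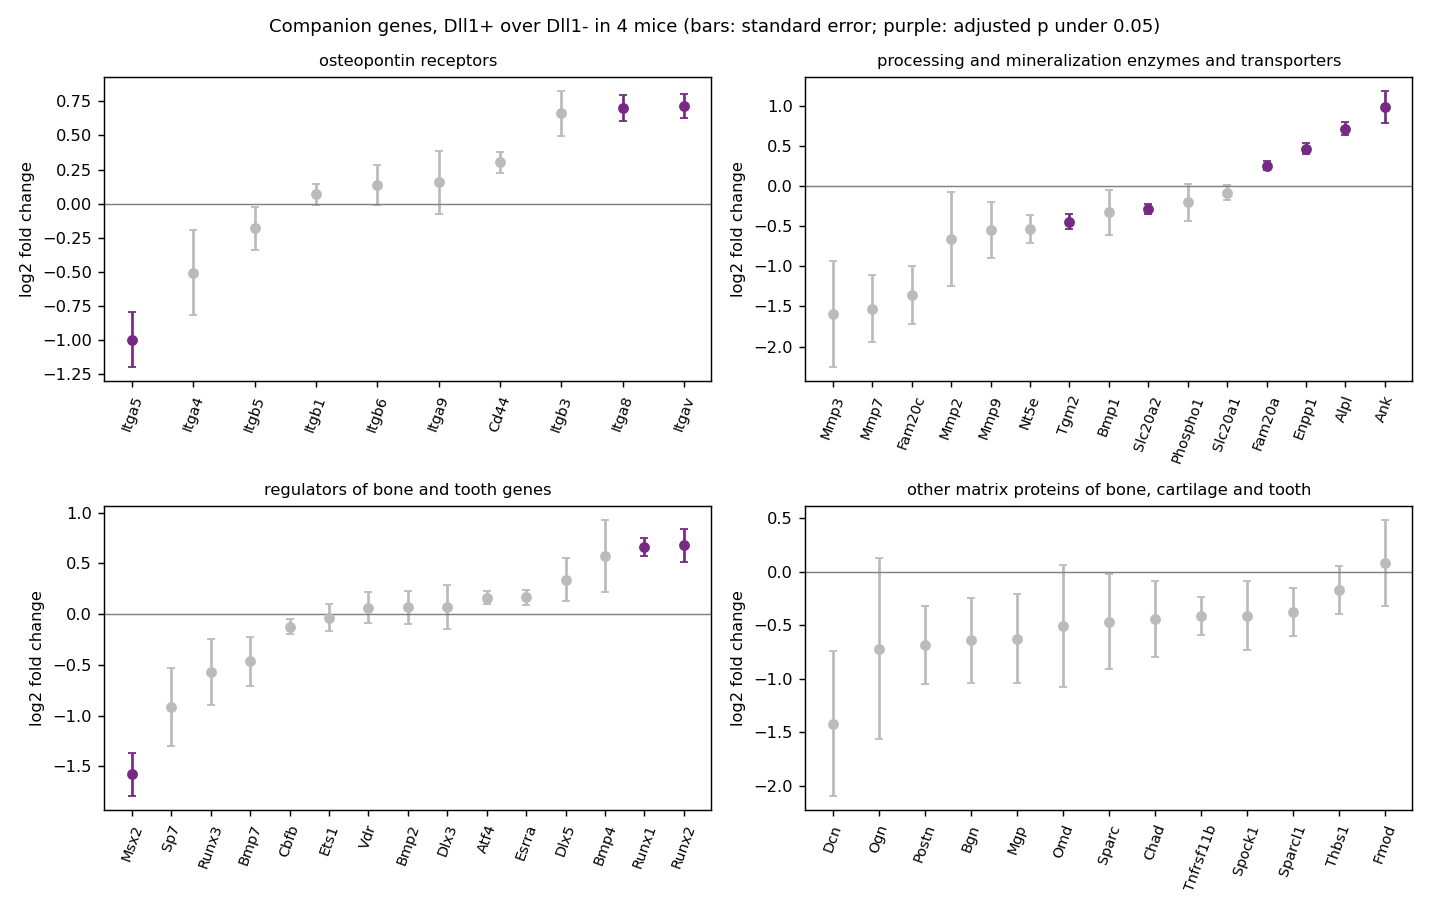
log2 fold change of Dll1+ over Dll1- cells in 4 mice for 53 of the 54 companion genes that passed the filter, 1 panel per list, ordered by value (bars are standard errors; purple points have an adjusted p under 0.05). Receptor, enzyme and regulator genes pass in both directions, whereas 0 of the 13 other matrix genes pass and 12 of the 13 lie below 0.

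In Dll1- cells, 4 of the 10 receptors were higher and 2 lower in mCh than in GFP mice (60.0%, against 36.6% of all genes). They were led by Itga9 (2.19, adjusted p = 0.00298), Itgb6 (-0.91, adjusted p = 0.00390) and Itga5. In Dll1+ cells 2 were higher and 2 lower (40.0%, against 30.6% of all genes), led by Itga8 (-0.90, adjusted p = 0.00664), Itga5 (2.16, adjusted p = 0.0181) and Itga9 (1.19, adjusted p = 0.0228). Of the enzymes and transporters 46.7% passed in Dll1- and 26.7% in Dll1+ cells, and of the regulators 12.5% and 6.25%. Among enzymes, Mmp2 (3.83, adjusted p = 0.00293), Mmp3 (4.80, adjusted p = 0.00592) and Nt5e (-0.91, adjusted p = 0.0122) led in Dll1- cells, and Phospho1 (2.42, adjusted p = 0.00796), Fam20c (1.51, adjusted p = 0.00961) and Mmp2 (1.87, adjusted p = 0.0263) in Dll1+ cells. Of the regulators, Runx3 (2.03, adjusted p = 0.00460) and Bmp7 (2.94, adjusted p = 0.0133) were higher in Dll1- and Bmp7 (3.36, adjusted p = 0.0128) in Dll1+ cells of mCh mice. Summed fibroblast markers also differed, at 7722 and 22010 CPM in Dll1- libraries of mCh mice against 1091 and 1240 CPM in those of GFP mice. The part of fibroblasts and of other cell types in these reporter differences was not tested.

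The genes around the members were read to see whether whole neighborhoods moved. Within 500 kb of the Dmp1 to Spp1 cluster, 9 protein-coding neighbors passed the filter and 0 passed the test in Dll1+ against Dll1- cells (edgeR, against 14.0% of all genes; 0 at an unadjusted p under 0.05 and 0 called by DESeq2). In either reporter alone edgeR and DESeq2 also called 0, with 1 at an unadjusted p under 0.05 in PyMT-Dll1GFP mice and 0 in PyMT-Dll1mCh mice. The nearest detected ones were Pkd2, a polycystin channel gene 18.4 kb from Spp1, at 0.16 ± 0.17 (adjusted p = 0.550), and Sparcl1, 88.9 kb from Dmp1, at -0.38 ± 0.22 (adjusted p = 0.301). The 9 lay between -0.40 and 0.21 on the log2 scale.

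Around Odam, Amtn and Ambn, 17 neighbors were tested, of which 3 rose and 1 fell (against 14.0% of all genes passing). The casein gene Csn3, 31.4 kb from Odam, was at 4464 to 6717 CPM in Dll1- and 8503 to 12960 CPM in Dll1+ libraries, without overlap (0.85 ± 0.12, adjusted p = 0.0119). On the other side of Odam, Prr27, 38.6 kb away, was at -1.54 ± 0.53 (adjusted p = 0.111). Another casein gene, Csn2, was at -1.72 ± 0.77 (adjusted p = 0.199). The nearest detected gene to Amtn, Prol1, 47.3 kb away, was at 1.74 ± 0.43 and did not pass (adjusted p = 0.0538), and Smr2 rose by 1.61 ± 0.40 (adjusted p = 0.0485). Jchain, 51.3 kb beyond Ambn, was at -1.68 ± 0.69 (adjusted p = 0.160).

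Around the osteocalcin genes, 33 neighbors were tested, of which 2 rose and 4 fell (against 14.0% of all genes passing). Paqr6, whose 3' end lies 0.1 kb from that of Bglap3 on the other strand, rose by 0.70 ± 0.13 (adjusted p = 0.0267). It was at 9.25 to 28.8 CPM in Dll1- and 17.4 to 54.5 CPM in Dll1+ libraries. The library kit keeps strand, but whether counting used it is not given in the sources used here. On the other side, Pmf1, a kinetochore gene 9.7 kb from Bglap, fell by 0.62 (SE 0.08, adjusted p = 0.00986).

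**Figure D5:**
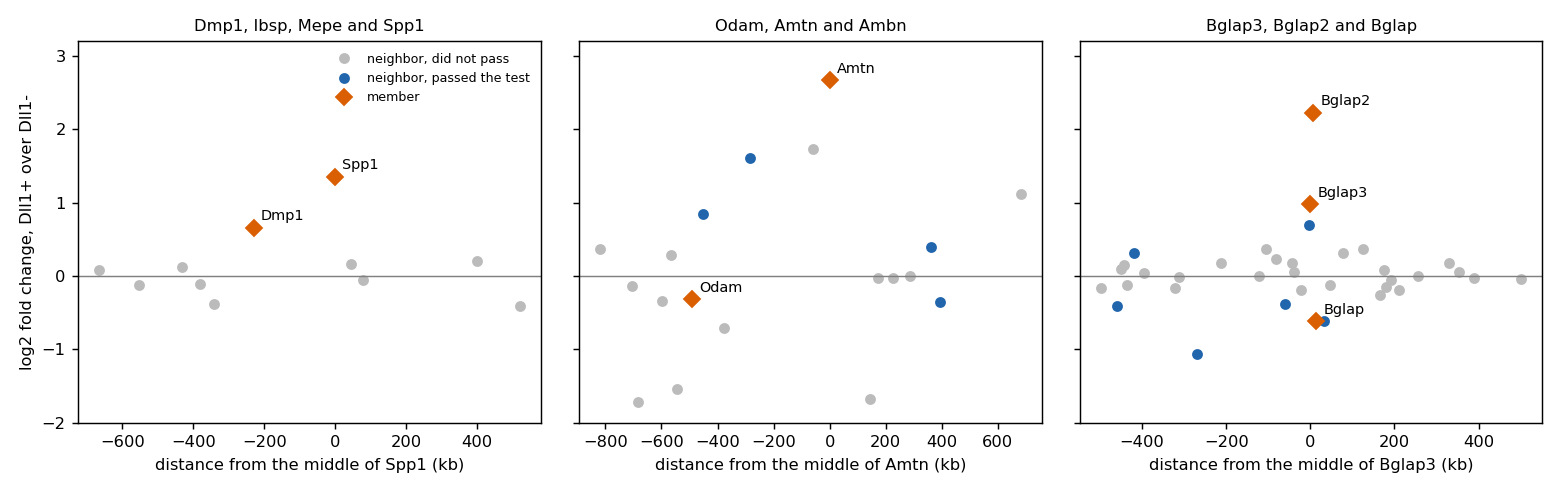
log2 fold change of Dll1+ over Dll1- cells (4 mice) for members (orange diamonds) and their tested protein-coding neighbors within 500 kb of each cluster, against the distance in kb from the middle of Spp1, Amtn or Bglap3; blue points passed the test and grey points did not, and the fitted value of Bglap2, with 0 counts in 2 libraries, depends on the prior count of the fit. 0 of 9 neighbors pass near Spp1, 4 of 17 near Amtn and 6 of 33 near Bglap3, against 14.0% of all genes.

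Genes with the pattern most like a member were ranked by Pearson's r of log2 CPM over the 8 libraries, among 14909 genes averaging 1 CPM or more. The points are pairs from 4 mice and share their sort, so r is a description. Most like Spp1 were Pdlim3 (r = 0.974), Tceal1 (0.968), Hpn (0.968), Spata6 (0.965) and March3 (0.958). Pdlim3, a muscle actin-associated protein, was at 8.54 to 16.0 CPM in Dll1- and 22.7 to 37.8 CPM in Dll1+ libraries, with its lowest value, as for Spp1, in the Dll1- cells of PyMT-Dll1mCh mouse 1. Most like Amtn were Irf7 (r = 0.991), Gm9905 (0.989), Ramp1 (0.986) and Pgm5 (0.970). Irf7, an interferon-induced transcription factor, was at 54.3 to 87.1 CPM in Dll1- and 97.4 to 158 CPM in Dll1+ libraries, and Ramp1, a receptor partner for the neuropeptide CGRP, was at 13.9 to 23.5 and 27.3 to 47.0 CPM. For all 3 of Amtn, Irf7 and Ramp1, PyMT-Dll1mCh mouse 1 was the highest in both cell groups.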

How the data were processed

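RNA was measured in 8 libraries of sorted tumor cells from 4 mice. The authors mapped reads with salmon to GENCODE M20 transcripts (GRCm38.p6) and used tximport for gene totals, and the deposited values are expected counts per gene as whole numbers, without normalization. The kit was a stranded TruSeq kit, and the strand setting of the mapping is not given in the sources used here. The submitters' processing notes name Salmon and GRCm38.p6. Total counts were 27.3 M to 123.9 M per library (median 38.2 M), so that precision at a given CPM differs among libraries.

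The counts, used as deposited for 53697 genes, were tested with edgeR 4.0.16 (R 4.3.3), with TMM normalization, filterByExpr on Dll1 status and a robust quasi-likelihood F test, in place of the DESeq2 named in the study's methods, which was an alternative. Dll1+ was compared with Dll1- cells with the mouse as a block, as in the study's model of both terms. A second fit gave the effect per reporter and its difference, and a further fit, of 4 groups without a block, compared the reporters. That fit takes the 8 libraries as independent, though they form 4 pairs, so its p values may be too small. The reporter is nested in the mouse, so effects of the construct and of the mice cannot be told apart. P values were adjusted over the 18322 genes tested (Benjamini-Hochberg, threshold 0.05). Errors of log2 fold changes are standard errors from the fit, with a prior count of 2 for values per library on the log2 scale. The pairing comes from the mouse named for each library, and the deviations of paired libraries correlated at -0.047 in PyMT-Dll1GFP and 0.554 in PyMT-Dll1mCh mice.

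Gene positions are those of GENCODE M21 on the same build, which matched 53668 of 53697 genes by identifier. Of the members, 9 of 10 matched a RefSeq promoter. Sequences shared by the osteocalcin transcripts were counted as words of 31 bases.

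The members and the lists were chosen with earlier results of these data known. Named were every member, Dll1, Ptprc, Pecam1 and Epcam, up to 5 genes per list past the threshold with the lowest p by Dll1 (3 where none passed) and up to 3 between reporters, the 5 genes most like Spp1 and Amtn, the nearest detected neighbors, and the markers by list. A few genes that these rules would name are not reported here. Other genes named were chosen after their values were seen. On simulated counts with 200 of 18322 genes changed, the 4-mouse comparison recovered 95 of 100 genes changed 4-fold and 66 of 100 changed 2-fold, with 4.17% of its calls false. Those counts were drawn from the fitted spread with the same change in every mouse. The shares need not hold where effects vary between mice. Alternatives were RLE size factors, omitting the filter, a minimum of 10 counts per library throughout, DESeq2 1.42.0, other blocks, each reporter fitted alone, summed osteocalcin counts and each mouse left out.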

Additional observations from a re-analysis of the deposited data

Results flagged for a closer look

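In 38 groups of 4 libraries (the members that passed the filter and the companion genes that passed the test, in Dll1- and in Dll1+ cells), 4 held a library far from the other 3, and chance marks about 1 in 20. Bglap was at 3.01 CPM in Dll1- cells of PyMT-Dll1mCh mouse 1, against 0.555 CPM in the next library, and at 2.63 CPM in its Dll1+ cells, against 0.419 CPM. Bglap2 was at 1.001 CPM in Dll1- cells of the same mouse, against 0.165 CPM. Enpp1 was at 76.5 CPM in Dll1+ cells of PyMT-Dll1mCh mouse 2, against 96.8 CPM in the next library.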

How the results depend on the processing

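Among the members, the direction over 4 mice held under each alternative that gave a value for Spp1, Amtn, Dmp1, Bglap3 and Bglap2 (Bglap2 had none with at least 10 counts per library, and neither it nor Bglap3 with summed osteocalcin counts), with log2 fold changes of 1.25 to 1.42 for Spp1, 2.31 to 2.97 for Amtn, 0.55 to 0.77 for Dmp1 and 0.82 to 1.12 for Bglap3. With the osteocalcin counts summed, the value was 0.97. The number of genes past the threshold moved more than the values. Without the mouse as a block, it went from 4 to 0 members and from 12 to 0 companion genes over 4 mice, from 3 to 0 and 11 to 4 in PyMT-Dll1GFP mice, and from 4 to 0 and 11 to 0 in PyMT-Dll1mCh mice. With the replicate number as a block, 3 members in place of 0 passed between reporters in Dll1- cells. With each reporter fitted alone, 0 members and 0 companion genes passed in PyMT-Dll1mCh mice. With no filter, 3 members passed over 4 mice in place of 4, and the companion genes Ank, Fam20a and Itga5 were lost, while 5 members and 17 companion genes passed in PyMT-Dll1GFP mice, 18 companion genes in PyMT-Dll1mCh mice, and 2 members and 11 companion genes for the difference. DESeq2 called 18 companion genes in PyMT-Dll1mCh mice, 1 member and 4 companion genes for the difference, and 4 members in Dll1- and 1 in Dll1+ cells between reporters. Leaving out 1 mouse in turn gave 1 to 4 members and 1 to 11 companion genes over 4 mice, 0 to 4 and 0 to 15 in PyMT-Dll1GFP, 2 to 3 and 5 to 14 in PyMT-Dll1mCh, and 0 to 1 and 0 to 11 for the difference. Between reporters it gave 0 to 3 members and 0 to 30 companion genes in Dll1- cells, and 0 to 4 and 0 to 22 in Dll1+ cells. Of the 12 companion genes that passed over 4 mice, 9 were lost without PyMT-Dll1GFP mouse 1, 6 without PyMT-Dll1GFP mouse 2, 11 without PyMT-Dll1mCh mouse 1 (all but Itga8) and 1 without PyMT-Dll1mCh mouse 2 (Fam20a). Fewer libraries were in those fits. Depth limits Odam, Bglap and Bglap2, which rest on few counts in most libraries, and Ibsp, Ambn and Mepe, which could not be compared.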
